A study of Rattus norvegicus with 6 samples.

Results

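Genes that form and destroy the 3′ end of RNA were followed in a pull-down of RNA from rat pituitary cells. They were chosen by gene name, as subunits of the cleavage and polyadenylation machinery, poly(A) polymerases and poly(A)-binding proteins, the RNA exosome, the CCR4-NOT deadenylase, decapping enzymes, the exonucleases Xrn1 and Xrn2, the nonsense-mediated decay factors named Upf and Smg, and Integrator. The rule selected 75 of the 32883 genes in the table, each with a name of its own. The cells were GH4C1, a wild type, established rat line of growth hormone and prolactin lineage, grown in medium with horse and fetal calf serum. All cells were treated with psoralen, which crosslinks base-paired nucleic acid strands, and RNA was retrieved with oligonucleotide pool A (3 libraries) or pool B (3 libraries). The study sought RNAs bound directly to the long noncoding RNA Neat1. The labels state neither the oligonucleotides in each pool nor whether a pool was a control, and input RNA was not analysed here. A difference between the pools is therefore a difference in recovered RNA. More of a transcript in the cells and better retrieval by a pool cannot be told apart, nor can fewer cells with a transcript and less of it per cell.

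Most messenger RNAs end where the cleavage and polyadenylation specificity factor (CPSF) recognises a poly(A) signal and cuts the nascent transcript. Cleavage factor I (CFI, built from Nudt21 with Cpsf6 or Cpsf7) and the cleavage stimulation factor (CstF) bind flanking RNA and steer which site is used. In the nucleus, CFI favours the early site that gives the short Neat1 isoform, while the long isoform builds paraspeckles. Integrator makes the corresponding cut in small nuclear RNAs and in many short transcripts. Decay usually starts with removal of the poly(A) tail by CCR4-NOT, followed by decapping and 5′ to 3′ digestion by Xrn1 or by 3′ to 5′ digestion in the exosome. Nonsense-mediated decay removes transcripts with premature stop codons. The values here are those of the messenger RNAs for these proteins and say nothing of the proteins themselves.

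Total counts were between 1826390 and 3685899 per library, and the chosen genes together took between 0.469% and 0.537% of them. Of 12 markers of the growth hormone and prolactin lineage, 9 had at least 10 counts in every library, Prl, Gh1 and Pou1f1 among them, while Ghrhr and Drd2 were at 0. The summed level of that list was 7938 to 8890 CPM (counts per 1000000 counts of the library) with pool A and 30693 to 37778 CPM with pool B. Most of that sum was Chgb, a granule protein, with between 8624 and 13469 counts with pool A and between 60077 and 91655 with pool B. The list did not move as 1 group. In the edgeR fit Chgb was called toward pool B, at a log2 fold change of -2.94 (pool A over pool B), and Prl, Scg2, Chga, Trhr and Pitx1 toward pool A, at 0.63 to 1.22. Gh1, Pou1f1 and Sstr2 were not called. Markers of other pituitary cells summed to 14.6 to 26.0 CPM with pool A and 51.5 to 57.1 CPM with pool B, with Tshb and Fshb at 0. Lhb made up most of that sum, with 39, 23 and 51 counts with pool A and 120, 73 and 119 with pool B. Tbx19 had 5, 11 and 21 counts with pool A and 21, 11 and 17 with pool B. Fibroblast, immune and endothelial lists summed to at most 24.5, 23.0 and 0.814 CPM in any library. The part of these shifts in the results below was not tested. Below, a level is given as normalized CPM, which are CPM of the library size after TMM scaling, listed for replicates 1, 2 and 3 of a pool. Libraries are called A1 to A3 and B1 to B3. Differences are log2 fold changes, pool A over pool B, so that a negative value means more with pool B, and the value after ± is the standard error (SE) of the fit. Levels depend on transcript length and are compared only between libraries, never between genes. The labels do not say whether libraries came from separate cultures, so the p-values measure the spread between these libraries, which may be technical.

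The 3 CFI genes are shown with the 100 bases before their annotated starts, together with Cpsf2, which went the other way in the pull-down. The sequences are RefSeq's for the GRCr8 assembly, printed 5′ to 3′ on the strand of the gene. They lie outside the transcripts and place the genes only. Capitals mark matches, on either strand, to GGGCGG (a GC box) or CGGAAG (an ETS core). CCAAT and TATAAA were also searched on both strands and match none of the 4 windows. No motif contains another.
Nudt21 (chr19:10980697-10980796, plus strand): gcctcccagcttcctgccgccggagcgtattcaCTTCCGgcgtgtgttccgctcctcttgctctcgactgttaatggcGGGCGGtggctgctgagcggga
Cpsf6 (chr7:54873999-54874098, minus strand): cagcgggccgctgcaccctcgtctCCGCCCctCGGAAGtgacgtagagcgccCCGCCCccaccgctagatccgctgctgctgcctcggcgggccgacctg
Cpsf7 (chr1:216592690-216592789, plus strand): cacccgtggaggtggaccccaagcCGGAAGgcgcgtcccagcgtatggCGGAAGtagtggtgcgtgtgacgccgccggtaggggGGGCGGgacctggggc
Cpsf2 (chr6:126889022-126889121, plus strand): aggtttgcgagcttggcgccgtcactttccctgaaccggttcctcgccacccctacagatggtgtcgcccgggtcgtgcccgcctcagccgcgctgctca
All 3 CFI windows hold both motifs, and the Cpsf2 window holds neither. Of 27457 promoters, 23.1% hold GGGCGG and 8.93% hold CGGAAG in this window, and of 8381 promoters of genes tested in the pull-down 45.4% and 18.7% do. Promoters were matched by symbol for 61 of the 75 genes. CGGAAG is in 9 of 16 matched genes called higher with pool A, in 1 of 11 called higher with pool B and in 4 of 28 that were not called. GGGCGG is in 8 of those 16, 4 of those 11 and 13 of those 28. CCAAT is in 3, 2 and 8 of the same sets, and TATAAA is in 1, 0 and 0. Over all tested genes with a matched promoter CGGAAG is in 19.9% of those higher with pool A and 20.3% of those higher with pool B.

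Of the 75 genes, 66 had enough counts to be tested. With a threshold of 0.05 on the adjusted p of edgeR (quasi-likelihood test), 18 of them were called higher with pool A, and 15 were called in the direction of pool B. That is 50.0% of the tested members, where 40.6% of all 11582 tested genes differed. By direction, 27.3% of the members were higher with pool A against a background of 18.6%, and 22.7% were higher with pool B against 22.0%. Ranges of normalized CPM did not overlap between the pools for 38 members, 57.6%, against 50.0% of all tested genes. Of these, 21 had pool A above (background 23.8%) and 17 had pool B above (background 26.2%). Differences of more than 2-fold were called for 7 members in each direction (background 25.4% in all, 11.1% with pool A and 14.2% with pool B). The median log2 fold change of the members, pool A over pool B, was 0.11, beside 0.02 for all tested genes. Without B3 the members' median was 0.039, without B2 it was 0.065, and with upper-quartile factors it was 0.21. The split depended on the scaling. It was 18 to 15 with TMM, 13 to 17 with total counts alone and 20 to 14 with upper-quartile factors, which moved the median of all tested genes by -0.14 and 0.10. Over all tested genes the split was 2154 to 2546, 1709 to 2922 and 2515 to 2251 under the same scalings. Pool A thus took 55%, 43% and 59% of the member calls, beside 46%, 37% and 53% of all calls. The members' median was -0.041 with total counts alone.

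**Figure D1:**
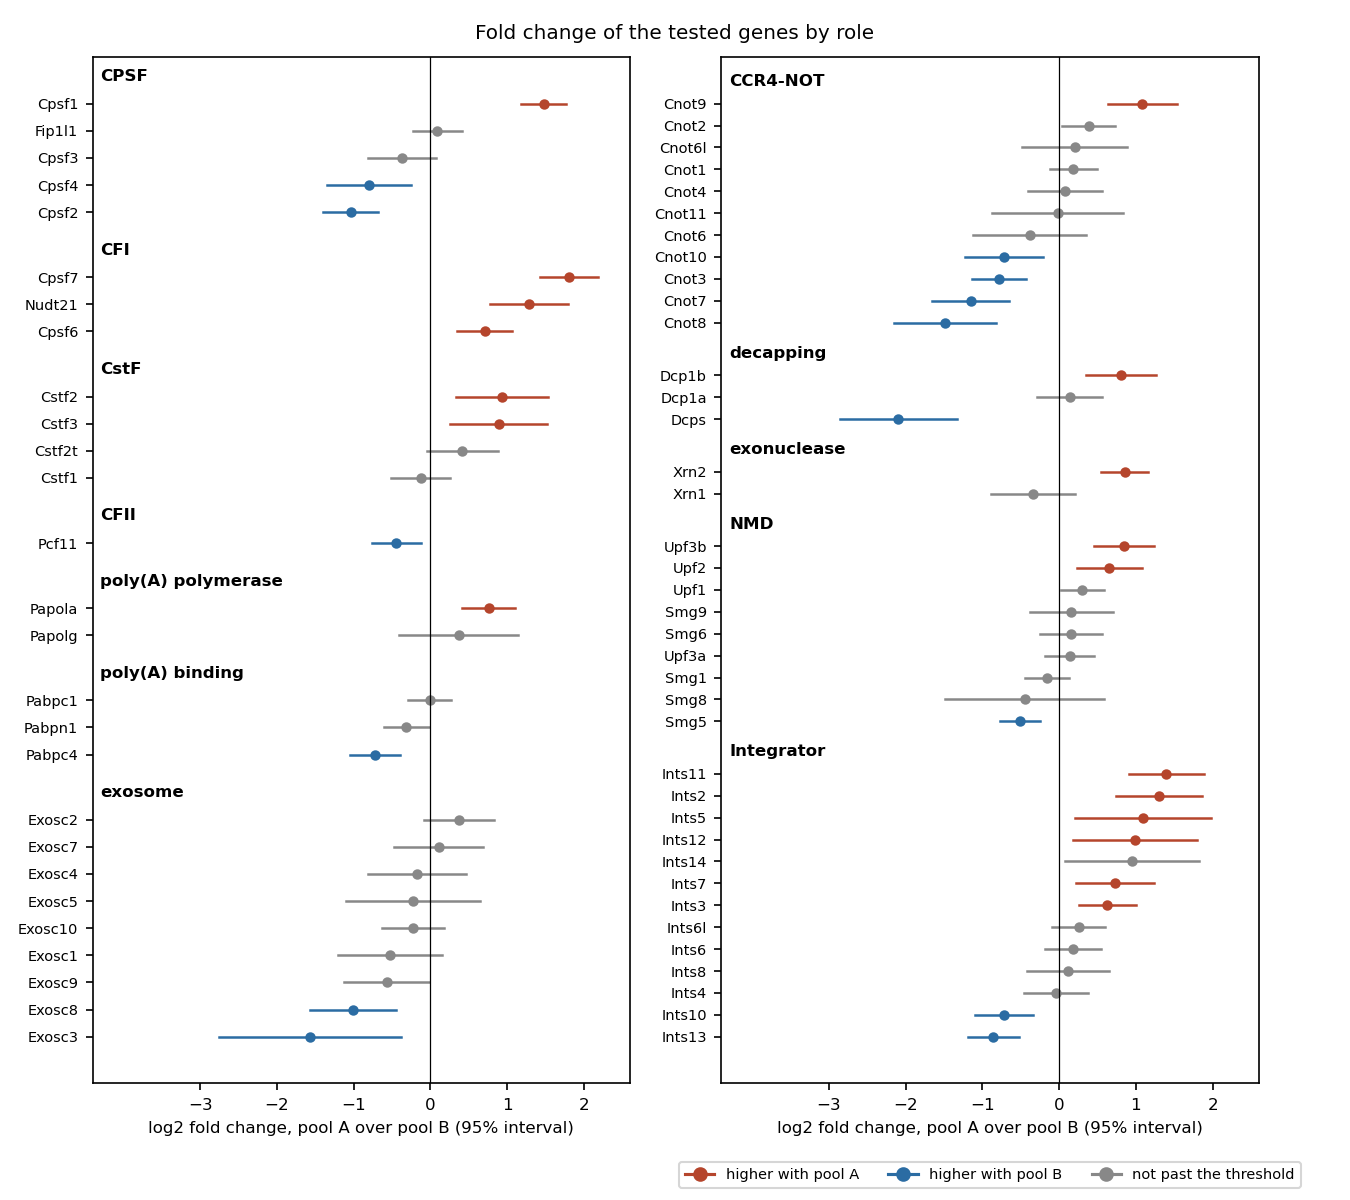
The log2 fold change, pool A over pool B, of 65 of the 66 tested genes, grouped by role, with unadjusted 95% intervals from the edgeR fit. Red points lie toward pool A and blue points toward pool B at an adjusted p under 0.05, and grey points did not pass. All 3 CFI genes lie to the right, between 0.71 and 1.81, while most other groups hold genes on both sides of 0.

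The 3 CFI genes were each called higher with pool A, against a background of 18.6% of all tested genes. Nudt21 (ENSRNOG00000042983), the RNA-binding subunit of CFI, had 49.8, 58.7 and 70.8 normalized CPM with pool A and 19.8, 33.9 and 21.1 with pool B. Every pool A library lay above every pool B library, and replicate 2 was the highest of pool B. The log2 fold change was 1.28 ± 0.25 (edgeR adjusted p 0.000108). Cpsf7 (ENSRNOG00000020668), one of the alternative large subunits, had 117, 141 and 146 normalized CPM with pool A and 34.4, 46.7 and 34.9 with pool B. This was the largest difference of the group, a log2 fold change of 1.81 ± 0.18 (edgeR adjusted p 5.18e-09), and 95.7% of all tested genes had a fold change as low or lower. Cpsf6 (ENSRNOG00000005927), the other large subunit, had 158, 184 and 204 normalized CPM with pool A and 97.7, 149 and 88.7 with pool B. Here the gap was narrow, between 158 in the lowest pool A library and 149 in the highest pool B library. Cpsf6 differed by a log2 fold change of 0.71 ± 0.17 (edgeR adjusted p 0.00166). Pool B replicate 2 was the highest pool B library for all 3 genes.

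CPSF genes differed in both directions. Cpsf1 (ENSRNOG00000030705), the large scaffold subunit, had 264, 284 and 259 normalized CPM with pool A and 104, 89.4 and 96.7 with pool B. The pools were far apart relative to their spread, with a log2 fold change of 1.47 ± 0.14 (edgeR adjusted p 2.03e-09). Cpsf2 (ENSRNOG00000005733), the inactive partner of the nuclease, went the other way with 56.4, 55.6 and 49.5 normalized CPM with pool A and 112, 122 and 97.8 with pool B, and all pool B libraries lay above pool A. For Cpsf2 the log2 fold change was -1.04 ± 0.17 (edgeR adjusted p 1.94e-05). Cpsf4, a zinc finger protein that binds the poly(A) signal, was also higher with pool B, at -0.81 (adjusted p 0.0166), but its ranges overlapped. That call was lost without A3 (adjusted p 0.109), B2 (0.0714) or B3 (0.118). Cpsf3, the endonuclease that makes the cut, had 39.9, 44.2 and 74.2 normalized CPM with pool A and 68.2, 68.3 and 69.1 with pool B. Replicate 3 of pool A stood with pool B, and the log2 fold change of -0.37 did not pass (adjusted p 0.177). Without that library it was -0.69 and passed at 0.0126. Fip1l1, which brings in the poly(A) polymerase, had 113, 137 and 126 normalized CPM with pool A and 110.4, 134 and 110.2 with pool B, with overlapping ranges and a 95% interval of the log2 fold change from -0.23 to 0.41.

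Because scaling moved the split, pairs of genes were also compared within each library as ratios of raw counts, which no scaling changes. The pairs were chosen after their values were seen and are a description. For each count of Cpsf2 there were 4.68, 5.10 and 5.24 counts of Cpsf1 with pool A, but 0.928, 0.731 and 0.989 with pool B. Likewise there were 2.08, 2.54 and 2.94 counts of Cpsf7 per count of Cpsf2 with pool A and 0.307, 0.382 and 0.357 with pool B. Each pair joins genes with fold changes of opposite sign, mostly called ones, so the separation of the ratios follows from that choice.

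**Figure D2:**
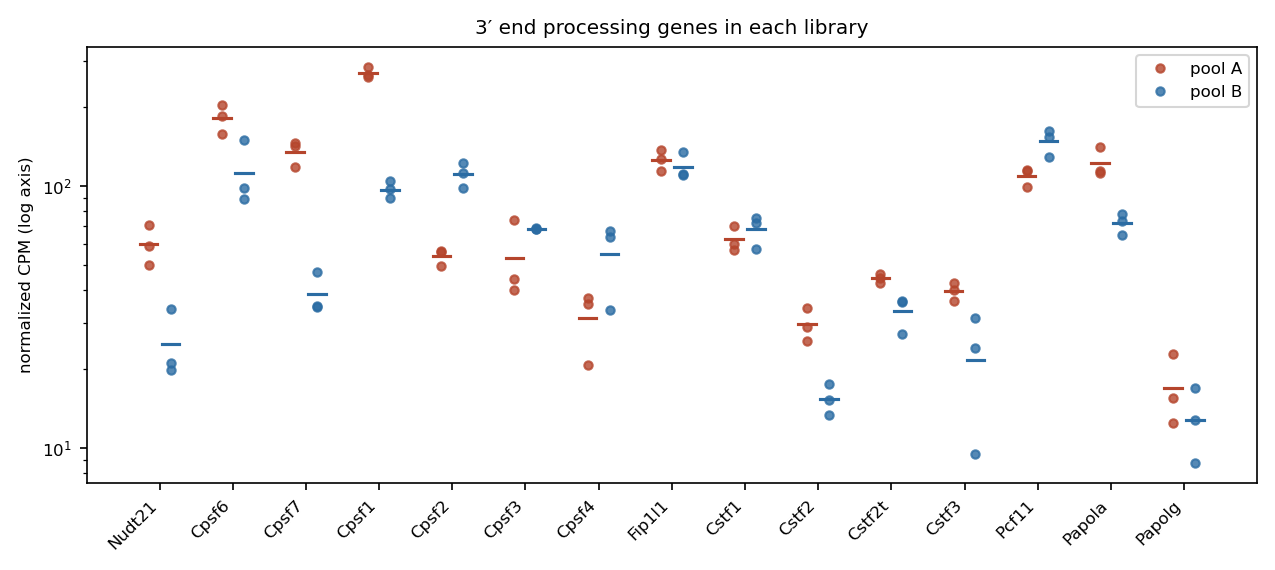
Normalized CPM (log axis) of 15 genes of 3′ end processing in each library, with points for the 3 libraries of a pool and bars for their mean. Nudt21, Cpsf7 and Cpsf1 show pool A well above pool B, Cpsf2 shows the reverse, and Fip1l1 and Cstf1 overlap.

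Of 4 CstF genes, 2 were called toward pool A and 0 toward pool B (background 18.6% and 22.0%). Cstf2, which binds the GU-rich element after the cut, had 34.1, 28.9 and 25.7 normalized CPM with pool A and 17.5, 13.4 and 15.3 with pool B, and Cstf3, which joins the CstF subunits, had 36.2, 42.5 and 39.9 normalized CPM with pool A and 24.0, 31.3 and 9.46 with pool B. The log2 fold changes were 0.93 ± 0.29 and 0.89 ± 0.31, with edgeR adjusted p-values of 0.011 and 0.021. Both calls were fragile. Cstf2 lost it without A1 (0.0619). Cstf3 lost it with total counts alone (0.0592), without A2 (0.0649) and when pool B lacked replicate 3 (0.156), where the fold change was 0.52. Cstf2t, a close paralog of Cstf2, had 44.3, 42.5 and 46.1 normalized CPM with pool A and 36.0, 36.5 and 27.3 with pool B, which did not overlap but did not pass (0.42, adjusted p 0.151). Cstf1 overlapped between pools, with 57.0, 70.1 and 60.0 normalized CPM with pool A and 57.1, 75.5 and 72.0 with pool B and a 95% interval from -0.52 to 0.26.

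Of cleavage factor II, Pcf11, which ties 3′ end formation to RNA polymerase II, had 114, 115 and 99.0 normalized CPM with pool A and 154, 129 and 161 with pool B. Pool B was higher in every library, by a small log2 fold change of -0.44 ± 0.15 (edgeR adjusted p 0.0213). The call was lost with upper-quartile factors (0.0759) and without A2 (0.0522), A3 (0.105), B1 (0.0568) or B3 (0.101). Its partner Clp1, an RNA kinase, had 3, 10 and 1 counts with pool A and 10, 18 and 3 with pool B and was too low to test. Nudt21 had 0.438, 0.511 and 0.716 counts per count of Pcf11 with pool A and 0.129, 0.263 and 0.131 with pool B. Papola, the canonical poly(A) polymerase, was higher with pool A, at 114, 112 and 141 against 73.4, 64.7 and 78.2 normalized CPM. This was a log2 fold change of 0.76 ± 0.17 (edgeR adjusted p 0.000547). Its nuclear paralog Papolg had 12.4, 22.8 and 15.5 normalized CPM with pool A and 16.9, 8.73 and 12.7 with pool B, with overlapping ranges and a 95% interval from -0.41 to 1.14. Over CPSF, CstF, both cleavage factors and the polymerases together, 10 of 15 tested genes were called, 7 were higher with pool A, and pool B was higher for 3, against a background of 18.6% and 22.0%. Without B3 the counts were 6 and 1. The median log2 fold change was 0.42.

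Poly(A)-binding proteins coat the finished tail. Pabpc1, the main cytoplasmic form, had 354, 293 and 342 normalized CPM with pool A and 386, 304 and 307 with pool B. The ranges overlapped, and the 95% interval of its log2 fold change ran from -0.29 to 0.27. Its paralog Pabpc4 was higher with pool B in every library, with 71.7, 76.7 and 77.0 normalized CPM with pool A and 126, 125 and 121 with pool B, and differed by -0.72 ± 0.16 in log2 (edgeR adjusted p 0.000488). Close paralogs can exchange reads under a counting scheme that is not stated. Pabpn1, the nuclear form, had 152, 166 and 152 normalized CPM with pool A and 205, 168 and 209 with pool B, without overlap, and did not pass (-0.31, adjusted p 0.0833). It passed with total counts alone (0.016) and without B2 (0.0401). The other 6 genes of this group were not tested. Pabpc2, Pabpc4l, Pabpc5 and Pabpc6 had 0 counts in all 6 libraries, where a count of 0 allows up to 3 counts, or 0.814 to 1.64 CPM. Pabpc1l had 0, 0 and 0 counts with pool A and 1, 10 and 0 with pool B, and Pabpn1l, which acts in the germ line, had 8, 4 and 2 counts with pool A and 7, 1 and 9 with pool B.

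Among exosome genes, 2 of 9 tested were called (22.2%, background 40.6%), both higher with pool B. Exosc8, a subunit of the ring, had 14.5, 25.0 and 19.2 normalized CPM with pool A and 32.8, 37.0 and 46.9 with pool B. Pool B was higher in each library, with a log2 fold change of -1.01 ± 0.27 (edgeR adjusted p 0.00387). Exosc3, an RNA-binding subunit of the cap, was low throughout, with 11, 12 and 7 counts with pool A and 40, 23 and 17 with pool B. The difference of -1.57 ± 0.58 passed at an edgeR adjusted p of 0.031, and the call was lost without A1 (0.0845), A3 (0.107), B1 (0.129) or B2 (0.089). The other 7 ranged from -0.57 for Exosc9, a ring subunit whose pool ranges did not overlap, to 0.37 for Exosc2, a cap subunit. Over the scalings, filters, tools, block and left-out libraries, Exosc2 ran from 0.087 to 0.58 and was not called. Exosc9 passed with total counts alone (adjusted p 0.0375, 0.0934 with TMM). Exosc7, another ring subunit, lay nearest to 0, with 31.0, 31.5 and 24.1 normalized CPM with pool A and 24.0, 38.0 and 19.3 with pool B and an interval from -0.47 to 0.68. Exosc10, the nuclear exonuclease of the complex, had 76.1, 69.7 and 56.3 normalized CPM with pool A and 98.0, 58.0 and 78.9 with pool B, with overlapping ranges. Exosc1, Exosc4 and Exosc5 overlapped too, at -0.53, -0.18 and -0.23. Exosc6 had 17, 8 and 9 counts with pool A and 13, 6 and 5 with pool B and was not tested.

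Of 11 CCR4-NOT genes, 1 was called toward pool A and 4 toward pool B, 45.5% in all, near the background of 40.6%. Cnot7 and Cnot8 encode paralogous deadenylases of the complex, and both were higher with pool B. Cnot7 had 20.3, 19.7 and 20.4 normalized CPM with pool A and 49.0, 45.2 and 40.4 with pool B, with pool A replicates almost equal. Cnot8 had 14.5, 6.57 and 10.8 normalized CPM with pool A and 27.3, 29.8 and 34.2 with pool B, and again no pool A library reached pool B. Log2 fold changes of -1.15 ± 0.24 for Cnot7 and -1.49 ± 0.33 for Cnot8 were measured, with edgeR adjusted p-values of 0.000326 and 0.000524. The other deadenylase pair, Cnot6 and Cnot6l, overlapped between pools, at -0.38 (95% interval -1.12 to 0.36) and 0.20 (-0.48 to 0.88). Cnot9, which contacts the Argonaute partner proteins of the Tnrc6 family, was the only CCR4-NOT gene called higher with pool A. It had 54.4, 63.5 and 87.5 normalized CPM with pool A and 32.1, 33.9 and 30.9 with pool B, and differed by 1.09 ± 0.22 in log2 (edgeR adjusted p 0.000206). Within libraries there were 2.69, 3.22 and 4.29 counts of Cnot9 per count of Cnot7 with pool A, and 0.656, 0.75 and 0.766 with pool B. Per count of Cnot8 there were 3.76, 9.67 and 8.09 with pool A and 1.18, 1.14 and 0.904 with pool B.

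Cnot3, a subunit of the module that binds regulators, was higher with pool B, with 62.5, 80.6 and 99.6 normalized CPM with pool A and 139, 132 and 147 with pool B. Pool A varied more than pool B, and the log2 fold change was -0.78 ± 0.17 (edgeR adjusted p 0.000491). Leng1, in the row before Cnot3, was also higher with pool B. Cnot10 had 36.7, 31.5 and 30.3 normalized CPM with pool A and 40.2, 79.1 and 45.1 with pool B, and replicate 2 of pool B was far above the others. It was called at -0.72 (adjusted p 0.0208), but without pool B replicate 2 the value was -0.38 (adjusted p 0.267), and the call was also lost without A2 (0.077) or A3 (0.0674). Cnot1, the scaffold on which the complex is built, had 138, 154 and 163 normalized CPM with pool A and 142, 135 and 122 with pool B, with overlapping ranges and an interval from -0.12 to 0.49. Cnot11, the partner of Cnot10, had 9.26, 11.8 and 17.0 normalized CPM with pool A and 7.47, 14.4 and 17.1 with pool B and lay nearest to 0. Cnot4, a ubiquitin ligase, overlapped at 0.08. Cnot2 lay above pool B in all pool A libraries, at 105, 118 and 107 against 80.8, 70.9 and 99.7 normalized CPM, and did not pass (adjusted p 0.0693). It passed with upper-quartile factors (0.0207), with a minimum of 10 counts per library (0.0455) and without B3 (0.0333).

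Dcps showed the largest difference of all 66 tested members. It encodes the scavenger enzyme that hydrolyses the cap left over after 3′ to 5′ decay. Dcps (ENSRNOG00000009993) had 6.65, 4.38 and 7.11 normalized CPM with pool A and 20.4, 29.8 and 29.1 with pool B, on 23, 10 and 23 counts with pool A and 63, 58 and 80 with pool B. Pool B was 4.27-fold higher in the fit, a log2 fold change of -2.09 ± 0.37 (edgeR adjusted p 4.01e-05), and no library of pool A came near pool B. Dcp1b, an activator of decapping, was higher with pool A, with 52.7, 50.4 and 49.5 normalized CPM with pool A and 32.5, 27.7 and 26.5 with pool B, and differed by 0.81 ± 0.22 in log2 (adjusted p 0.00426). Its paralog Dcp1a had 57.9, 44.2 and 59.1 normalized CPM with pool A and 45.4, 56.0 and 46.2 with pool B, which overlapped, with an interval from -0.28 to 0.56. Each count of Dcps came with 7.91, 11.5 and 6.96 counts of Dcp1b with pool A and 1.59, 0.931 and 0.912 with pool B.

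Of the exonuclease genes, Xrn2 was called and Xrn1 was not. The difference between them was not tested. Xrn2, the nuclear enzyme that degrades the RNA behind a terminating polymerase, had 245, 249 and 199 normalized CPM with pool A and 109, 131 and 143 with pool B. Pool A was higher in every library, with a log2 fold change of 0.85 ± 0.15 (edgeR adjusted p 3.82e-05). Xrn1, its cytoplasmic counterpart, had 22.3, 23.7 and 22.6 normalized CPM with pool A and 31.8, 24.1 and 30.2 with pool B. Those ranges did not overlap, with pool B above, but the difference was small and did not pass (-0.34, adjusted p 0.337). There were 10.99, 10.5 and 8.81 counts of Xrn2 per count of Xrn1 with pool A and 3.43, 5.43 and 4.75 with pool B.

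**Figure D3:**
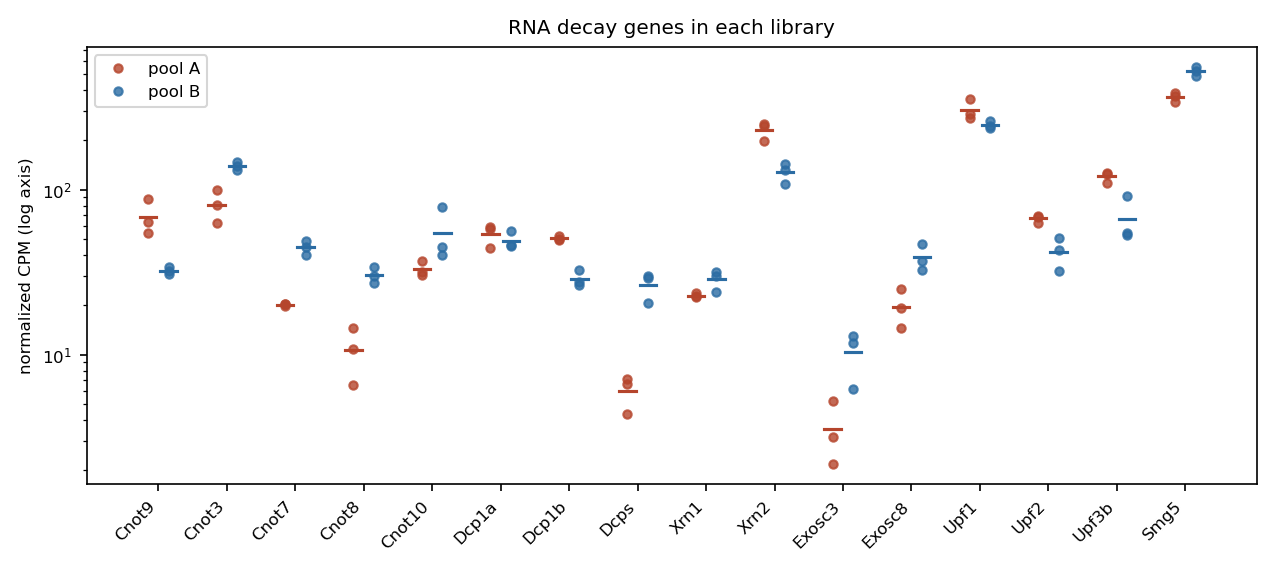
Normalized CPM (log axis) of 16 RNA decay genes in each library, with points for libraries and bars for the mean of a pool. Cnot7, Cnot8, Dcps and Smg5 show pool B above pool A in every library, and Cnot9, Dcp1b, Xrn2 and Upf3b show pool A above pool B.

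In nonsense-mediated decay, 2 of 10 tested genes were called toward pool A and 2 toward pool B, shares near the background of 18.6% and 22.0%. Smg5, an adaptor that brings decay enzymes to phosphorylated Upf1, was higher with pool B in every library, with 371, 387 and 342 normalized CPM with pool A and 487, 522 and 556 with pool B and a log2 fold change of -0.51 ± 0.13 (adjusted p 0.00193). Upf3b, which links Upf2 to the exon junction complex, was higher with pool A, with 124, 127 and 110.4 normalized CPM with pool A and 91.2, 54.9 and 53.5 with pool B. Replicate 1 was the highest of pool B, and the log2 fold change was 0.85 ± 0.19 (adjusted p 0.000679). The row after Upf3b in the table, Nkap, was also higher with pool A, at 1.77. Upf2, which bridges Upf1 and Upf3, had 69.7, 63.1 and 68.0 normalized CPM with pool A and 51.0, 32.4 and 43.3 with pool B and a log2 fold change of 0.65 ± 0.20 (adjusted p 0.0116). The Upf2 call was lost with total counts alone (0.0552) and without B2 (0.0753).

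Upf1, the helicase at the centre of the pathway, had 273, 287 and 356 normalized CPM with pool A and 245, 260.4 and 237 with pool B, just without overlap. Its difference of 0.30 did not pass (adjusted p 0.0801), and passed with upper-quartile factors (0.018), with a minimum of 10 counts per library (0.0459) and without A1 (0.0491). Upf3a, the paralog of Upf3b, was the member of this group nearest to 0, with 139, 149.8 and 175 normalized CPM with pool A and 129, 125 and 166 with pool B and an interval from -0.18 to 0.46. Smg1, the kinase that phosphorylates Upf1, had -0.16, and its partners Smg8 and Smg9 had -0.45 and 0.16. Smg6, the endonuclease, had 0.16. None of these 4 passed, and their ranges overlapped. Over the scalings, filters, tools, block and left-out libraries, Smg1 ran from -0.30 to -0.054 and Smg8 from -0.83 to -0.24. Smg9 ran from 0.0060 to 0.26 and Smg6 from 0.015 to 0.31. Over exosome, CCR4-NOT, decapping, exonuclease and nonsense-mediated decay genes, 14 of 35 tested were called (40%, background 40.6%), with a median log2 fold change of -0.16. Pool A was higher for 5 (14.3% of those tested, background 18.6%) and pool B for 9 (25.7%, background 22.0%). With total counts alone these counts were 4 and 10, and with upper-quartile factors 7 and 9. A minimum of 10 counts per library gave 7 and 8.

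Of 13 tested Integrator genes, 6 were higher with pool A, and pool B was higher for 2, against a background of 18.6% and 22.0%. The 6 fell to 3 with total counts alone and to 3 without B3. The median log2 fold change was 0.63, beside 0.02 for all tested genes. Ints11 (ENSRNOG00000019712), the endonuclease and a relative of Cpsf3, had 108, 80.2 and 49.5 normalized CPM with pool A and 28.9, 31.8 and 29.8 with pool B. Pool A varied widely, more than 2-fold from replicate 3 to replicate 1, yet all its libraries were above pool B. The log2 fold change was 1.39 ± 0.24 (edgeR adjusted p 2.65e-05). Pusl1, in the row after Ints11, was higher with pool A as well, at 1.14. Ints2, part of the backbone of the complex, had 43.1, 33.3 and 38.0 normalized CPM with pool A and 15.3, 19.0 and 12.7 with pool B, and differed by 1.30 ± 0.27 in log2 (adjusted p 0.000347). Brip1, in the row before Ints2, was also called higher with pool A, at 0.59. Ints7, another backbone subunit, and Ints3, which also serves in a DNA repair complex, were higher with pool A at 0.73 (adjusted p 0.0184) and 0.63 (0.00654). Ints7 lost the call with total counts alone (0.0653), without A3 (0.114) and without B1 (0.0716), and Ints3 lost it without B3 (0.057).

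**Figure D4:**
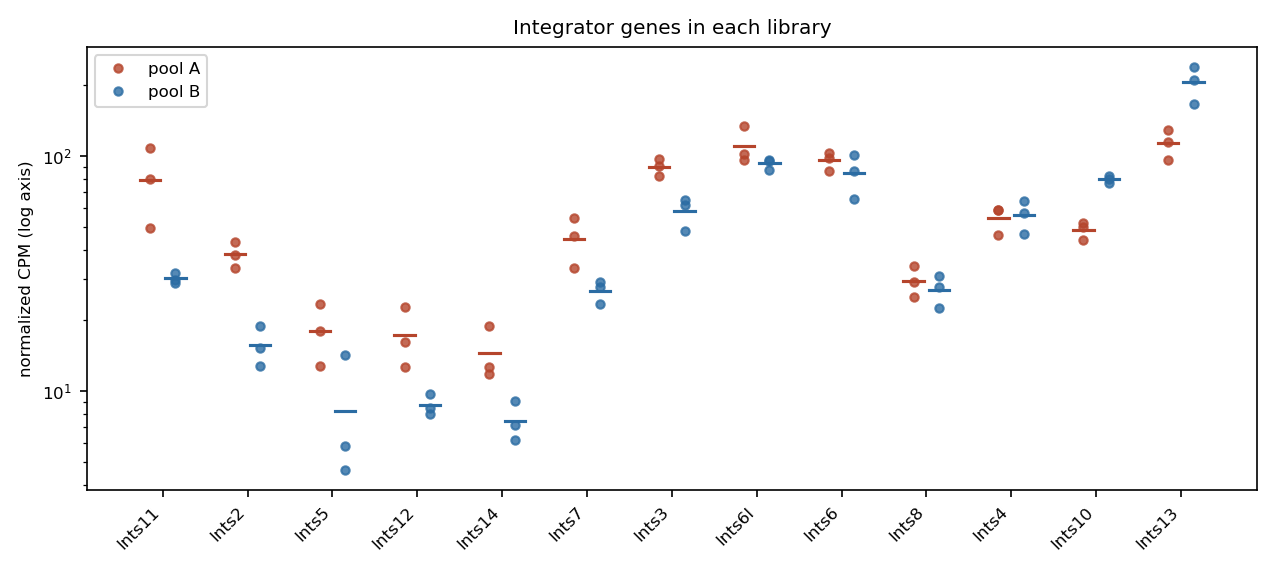
Normalized CPM (log axis) of the 13 tested Integrator genes in each library, ordered by fold change, with points for libraries and bars for the mean of a pool. Pool A is higher at the left end, from Ints11 and Ints2, and pool B is higher for Ints10 and Ints13 at the right.

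The remaining calls toward pool A in Integrator rested on low counts. Ints5 had 44, 41 and 76 counts with pool A and 44, 9 and 16 with pool B, with overlapping levels, a log2 fold change of 1.09 ± 0.43 (edgeR adjusted p 0.0449). Without pool B replicate 1 it was 1.77, and the call was lost without A2 (0.0867), A3 (0.19), B2 (0.149) or B3 (0.16). Ints12, which carries a PHD finger, had 79, 37 and 41 counts with pool A and 26, 19 and 22 with pool B (adjusted p 0.0458). That call was lost without A1 (0.251), A2 (0.0695), B1 (0.0869), B2 (0.0558) or B3 (0.111). With the replicate number as a block, Ints5 and Ints12 also lost their calls, at 0.0536 and 0.0672. They lost them with total counts alone (0.0838 and 0.0967), with DESeq2 (0.0829 and 0.0797) and with limma-voom (0.0505 and 0.0541), and Ints12 with no filter on low counts (0.0625).

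Ints10, Ints13 and Ints14 encode a module of Integrator that binds nucleic acid. Ints13 had 115, 96.4 and 129 normalized CPM with pool A and 167, 212 and 239 with pool B, and Ints10 had 44.0, 51.7 and 49.8 normalized CPM with pool A and 80.2, 76.5 and 82.2 with pool B. Both were higher with pool B in every library, with log2 fold changes of -0.86 ± 0.16 and -0.72 ± 0.18 and edgeR adjusted p-values of 8.03e-05 and 0.00225. Ints14 had 11.9, 12.7 and 18.9 normalized CPM with pool A and 9.09, 7.19 and 6.18 with pool B, with pool A above, and did not pass (0.94, adjusted p 0.0792). It passed when every library had to hold 10 counts or more (0.0372). Each count of Ints10 came with 0.98, 0.644 and 0.764 counts of Ints2 with pool A and 0.19, 0.248 and 0.155 with pool B. Ints6, which recruits a phosphatase, its paralog Ints6l and Ints8 overlapped between pools, at 0.18, 0.26 and 0.11. Over the settings and left-out libraries they ran from 0.028 to 0.32, 0.11 to 0.38 and -0.036 to 0.23. Ints4, the scaffold of the nuclease, lay nearest to 0, with 58.7, 58.7 and 46.1 normalized CPM with pool A and 46.4, 64.2 and 57.5 with pool B and an interval from -0.45 to 0.38. Ints9, the partner of the nuclease, had 2, 7 and 4 counts with pool A and 21, 14 and 5 with pool B and was not tested.

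**Figure D5:**
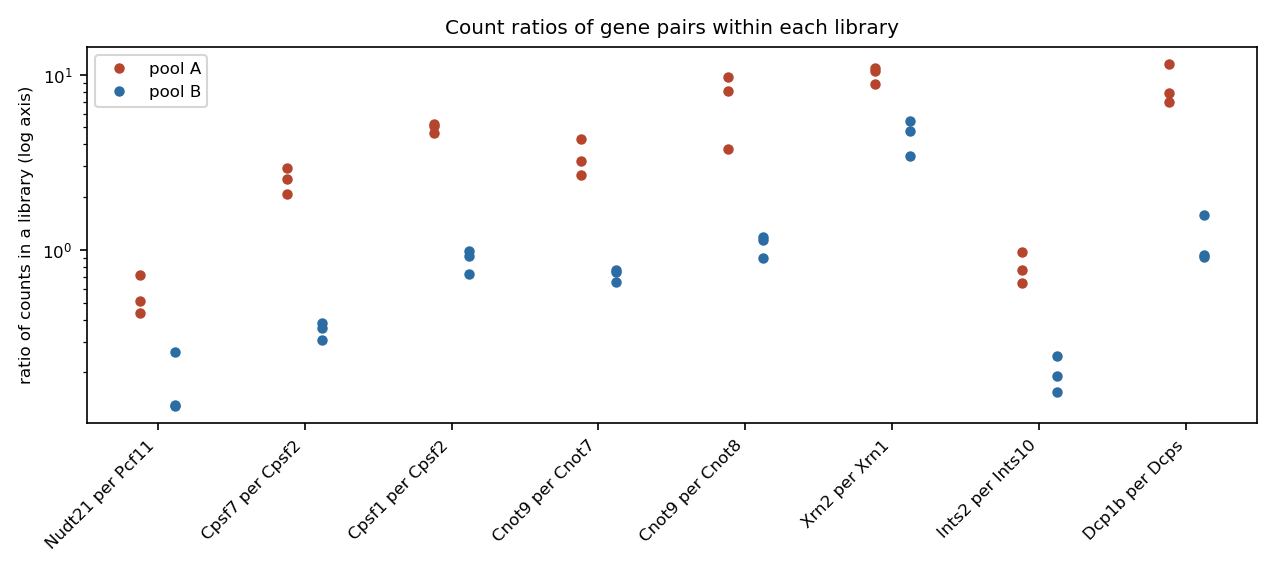
Ratio of the raw counts of 8 gene pairs within each library (log axis), with 1 point per library. The pairs were chosen after their values were seen, and for each of them the 3 pool A ratios lie above the 3 pool B ratios, as for Cpsf1 per count of Cpsf2.

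Other genes of these pathways, which the name rule does not select, were taken from 4 lists of known partners. Over all 88 tested, 25 were called toward pool A (28.4%, background 18.6%) and 16 toward pool B (18.2%, background 22.0%). This split depended on the scaling, at 21 to 22 with total counts alone and 32 to 15 with upper-quartile factors. The split of all tested genes moved too, from 2154 to 2546 with TMM to 1709 to 2922 and 2515 to 2251. Of 23 other genes of 3′ end formation and tailing, all were tested, 2 were called toward pool A and 6 toward pool B (background 18.6% and 22.0%). The 2 were 1 with total counts alone, 7 with upper-quartile factors, 4 with a minimum of 10 counts per library, 4 without A2 and 1 without B3. Tut1, which adds uridines to the U6 small nuclear RNA, had 59.6, 70.5 and 68.7 normalized CPM with pool A and 201, 233 and 152 with pool B and a log2 fold change of -1.56 ± 0.17. Rbbp6, an activator of cleavage, and Wdr33, the CPSF subunit that reads the poly(A) signal, were also higher with pool B, at -0.82 ± 0.13 and -0.85 ± 0.17. Wdr33 had 60.2, 76.2 and 70.5 normalized CPM with pool A and 116, 124 and 134 with pool B. Zc3h14, a nuclear poly(A)-binding protein, was higher with pool A at 0.96 ± 0.16. The edgeR adjusted p-values of these 4 were 1.7e-08, 1.3e-05, 0.000128 and 1.65e-05. Sympk, the scaffold shared by CPSF and CstF, had 178, 149 and 181 normalized CPM with pool A and 126, 143 and 143 with pool B and did not pass (0.31, adjusted p 0.0989). It passed with upper-quartile factors (0.0249) and without A2 (0.0456).

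Of 45 other decay genes tested, 16 were higher with pool A, and pool B was higher for 7 (background 18.6% and 22.0%), with a median log2 fold change of 0.38. The split was 13 to 10 with total counts alone and 17 to 6 with upper-quartile factors. Lsm2 and Lsm7 encode subunits of the ring that binds the 3′ end of deadenylated RNA, and they differed in opposite directions. Lsm2 had 141, 131 and 113 normalized CPM with pool A and 5.19, 6.16 and 7.27 with pool B, which is 4.36 ± 0.24 in log2, while Lsm7 had 18.8, 20.6 and 24.1 normalized CPM with pool A and 94.1, 83.7 and 143 with pool B, which is -2.34 ± 0.22. Their edgeR adjusted p-values were 2.03e-14 and 1.47e-09. Khsrp, which guides decay of AU-rich transcripts, was higher with pool A at 1.47 ± 0.13 (adjusted p 7.88e-10). Dis3, the catalytic subunit of the exosome, had 63.4, 68.3 and 58.8 normalized CPM with pool A and 29.2, 27.2 and 27.3 with pool B and was higher with pool A at 1.18 ± 0.21 (adjusted p 5.07e-05), whereas the called subunits of the exosome core were higher with pool B. Mtrex, the helicase that feeds the nuclear exosome, was higher with pool B, with 37.0, 60.9 and 52.9 normalized CPM with pool A and 88.6, 76.0 and 94.2 with pool B and a log2 fold change of -0.79 ± 0.20 (adjusted p 0.00194). Parn, a deadenylase, did not pass (-0.44, adjusted p 0.0895, and 0.0313 with total counts alone). Ddx6, a helicase of decapping, was called higher with pool A at 0.76 (adjusted p 0.0345). The Ddx6 call was lost with total counts alone (0.0987), no filter (0.0586), DESeq2 (0.0619) and without A2 (0.0964), A3 (0.0761), B1 (0.0685) or B3 (0.095).

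Of 14 other genes of nonsense-mediated decay tested, 6 were higher with pool A, and pool B was higher for 1, Eif4a3 (background 18.6% and 22.0%). That 1 became 4 with total counts alone, and 2 with limma-voom or without A2, A3 or B3. Eif4a3, the helicase that anchors the exon junction complex, had 39.1, 57.8 and 47.9 normalized CPM with pool A and 112, 106 and 98.9 with pool B and a log2 fold change of -1.14 ± 0.18. Nbas, which is needed for decay at the endoplasmic reticulum, and Etf1, the release factor that ends translation, were higher with pool A, at 1.80 ± 0.17 and 1.18 ± 0.19. The edgeR adjusted p-values were 1.24e-05, 1.19e-09 and 1.46e-05. Of 6 other genes tied to Integrator or to transcription of small nuclear RNAs, 1 was called toward pool A and 2 toward pool B, beside the same background. Nabp1, a partner of Ints3 in DNA repair, had 27.8, 28.5 and 26.9 normalized CPM with pool A and 65.2, 76.0 and 80.0 with pool B and differed by -1.41 ± 0.21 (adjusted p 2.63e-06). Zc3h8 was also higher with pool B, at -1.14 ± 0.21 (adjusted p 6.94e-05), and Ell2, an elongation factor, was higher with pool A at 0.96 ± 0.32 (adjusted p 0.0165). The Ell2 call was lost without A1 (0.145) or B3 (0.0934).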

How the data were processed

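RNA from psoralen-treated GH4C1 cells, pulled down with oligonucleotide pool A or pool B, was sequenced in 6 strand-specific paired-end libraries, per the labels' protocols. The authors deposited whole-number counts for 32883 rat genes with Ensembl identifiers, taken as raw counts. Versions, settings, genome build and annotation of STAR and featureCounts, which the submitters' processing notes name, are not given in the sources used here. The deposited table also holds each pool's mean (another unit, not used). Without a stated strand setting, a gene and an overlapping neighbour cannot be told apart.

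The comparison of pools used edgeR 4.0.16 (R 4.3.3; TMM on library totals, filterByExpr, quasi-likelihood test, pool as the only term). Two-sided p-values were adjusted (Benjamini-Hochberg) across the 11582 genes tested, threshold 0.05. SE is the fold change divided by the root of F. In simulated counts for this comparison, run on 11286 genes, 98 genes were changed 2-fold and 96 were changed 4-fold. Of these 50.0% and 91.7% were recovered, and 2.14% of calls were false. In the pull-down 40.6% of tested genes were called, far more than were changed in the simulation, so these rates need not hold there. Same-numbered libraries deviated from their pool means with r of 0.041, -0.019 and 0.020, so numbers were not taken as pairs. Counts of libraries of a pool differed by a chi-square per degree of freedom of 5.86 to 20.7, so none was a copy.

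The genes and lists were chosen with earlier results of these data known. Values in every library are given for Nudt21, Cpsf6 and Cpsf7, for up to 4 called members per role with a log2 fold change of at least 1, and for the member nearest 0. Further members were given in full after their values were seen. For the other lists, the 3 smallest p-values and 7 preset genes are named. Alternatives used DESeq2 1.42.0 and limma 3.58.1. Intervals are 95%, and limits for counts of 0 cover counting error only. The values of 1 called member and 1 marker gene are not reported here, though the counts include them.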

Additional observations from a re-analysis of the deposited data

How the results depend on the processing

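The numbers of genes called stayed within 1.5 times 18 and 15 under 3 other scalings, other filters, DESeq2, limma-voom, an adjusted p under 0.01 (12 and 11) and the replicate block. A stricter test, against 1.5-fold, left 7 and 5 members and 14 and 9 of the other pathway genes (25 and 16 in the fit reported). The shares of all tested genes at 1.5-fold and at 0.01 are not given here, so these counts have no background. With a library left out, members higher with pool A numbered 15 to 17 and with pool B 12 to 14, and other pathway genes 21 to 25 and 16 to 18. The median log2 fold change of the members, 0.11, was 0.13 with DESeq2 size factors, -0.041 with total counts alone, 0.21 with upper-quartile factors, 0.091 when no gene was filtered out, and 0.13 with at least 10 counts in every library. Leaving out 1 library gave 0.039 to 0.13. The median of all tested genes moved with the scalings too, and the cause of the other shifts was not tested.

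With the replicate number as a block, 16 and 15 members were called, and Ints5 and Ints12 lost their calls. Same-numbered libraries did not deviate together, so the block tests no known pairing. Of 33 called members, 22 were called under every scaling, filter, tool, block and left-out library that was run, and 11 lost the call under at least 1 of them. These counts leave out the stricter thresholds. Of members not called, 6 gained a call under at least 1 setting. Of 1342 refits of 84 genes, 1210 kept their direction and side of the threshold, 90 lost the call and 14 gained it. The other 28, of 11 members that were called under no such refit, turned sign. With total counts alone Cnot4 was -0.070, Ints8 -0.036, Exosc7 -0.046, Fip1l1 -0.057 and Dcp1a -0.0011. With upper-quartile factors Ints4 was 0.068, Pabpc1 0.092 and Cnot11 0.084. Pabpc1 was 0.0058 with DESeq2 size factors, 0.0038 with DESeq2's test and 0.0075 with at least 10 counts in every library. Cnot11 was 0.00095 with that filter, 0.0058 with the replicate block and 0.052 with limma-voom. Leaving out 1 library gave -0.57 to 0.26 for Exosc5, -0.35 to 0.14 for Exosc4, -0.091 to 0.41 for Exosc7, -0.16 to 0.092 for Ints4, -0.011 to 0.20 for Cnot4, -0.073 to 0.11 for Pabpc1, -0.31 to 0.24 for Cnot11 and -0.037 to 0.49 for Cnot6l. No called gene turned sign. The cause was not tested. Depth limits Clp1, Ints9 and Exosc6, which were too low to test.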

Other observations

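Of 11133 adjacent row pairs with RefSeq positions, 98.8% lie within 1 Mb of each other in GRCr8, so the rows next to each called member were looked at as a description. Of 33 called members, 24 had a tested gene in an adjacent row, and for 5 of them (20.8%) such a gene was called in the same direction. Over all 4700 called genes the share was 33.1% of 3570. The 5 pairs were Cnot3 with Leng1, Cpsf4 with Ptcd1, Ints11 with Pusl1, Ints2 with Brip1 and Upf3b with Nkap. Next to Exosc8, Supt20h, a subunit of a histone acetyltransferase complex, was higher with pool A at 1.003, while Exosc8 was higher with pool B. Next to Exosc3, Trmt10b, a tRNA methyltransferase, was higher with pool A at 1.12.

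Libraries of a pool varied less for these genes than for tested genes in general. The median coefficient of variation of normalized CPM was 13.2% with pool A and 14.9% with pool B over the 66 members, against 19.7% and 20.9% over all tested genes. Variation falls with rising counts, and the sets were not matched on counts.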
